A study of Mus musculus with 12 samples.

Results

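The genes described here are 10 immune checkpoint genes, out of 22364 gene symbols listed in all 3 expression tables of the series: the receptors Pdcd1 (PD-1), Ctla4, Havcr2 (TIM-3), Lag3 and Cd200r1, and the ligands Cd274 (PD-L1), Pdcd1lg2 (PD-L2), Cd80, Cd86 and Cd200. They were chosen by name, after Pdcd1 had been seen among the genes with the largest increase in the MLL-AF9 cotransduction, so the values of all 10 genes in that experiment are given as a description with no test. RNA was sequenced from 12 libraries of cultured C57BL/6 bone marrow cells, 2 libraries in each of 6 groups. In the first experiment, lineage-negative (Lin-) bone marrow cells, that is, cells without markers of mature blood lineages, were cotransduced with MLL-AF9 and PRDM16 or with MLL-AF9 and PRDM16mut. In the second, Lin- cells received E2A-HLF and PRDM16 or E2A-HLF and PRDM16mut, and in the third, bone marrow cells already carrying MLL-AF9 (stable cells) received PRDM16 or PRDM16mut. The culture medium was IMDM with 15% FBS and the cytokines IL3, SCF and IL6, each at 10 ng/ml. RNA was taken after 10 days under selection, which was double (G418 plus puromycin) for cotransduced cells and by puromycin alone for stable cells. MLL-AF9 and E2A-HLF are fusion oncoproteins of acute leukaemia, and PRDM16 is a zinc finger transcriptional regulator with a histone methyltransferase domain. The labels do not give the change in PRDM16mut, and every group carried a fusion and a form of PRDM16, so each comparison sets PRDM16 against PRDM16mut and not against cells without either.

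Immune checkpoints are receptor and ligand pairs that damp the activity of immune cells. PD-1 is best known on activated and exhausted T cells, where binding of PD-L1 or PD-L2 brings phosphatases to its cytoplasmic tail; CTLA-4 competes with the costimulatory receptor CD28 for CD80 and CD86. CD200 is a membrane glycoprotein whose receptor, CD200R1, sits mainly on myeloid cells and restrains them, and TIM-3 and LAG-3 are further inhibitory receptors. Myeloid and leukaemic cells are known to carry several of the ligands and some of the receptors.

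The region just before the annotated start of each gene gives the sequence context of the transcripts. RefSeq promoter sequences (GRCm38.p6, a later mouse build than the mm9 of the expression tables) were found for 7 of the 10 genes. The 250 bases before the start are shown for Pdcd1, the gene with the widest range of levels, for its ligand gene Cd274 and for Cd200, whose values, like those of Ctla4 and Cd86, lay on the same sides as those of Pdcd1 in both cotransductions. They lie at chr1:94052554-94052803 on the minus strand for Pdcd1, at chr19:29367188-29367437 on the plus strand for Cd274 and at chr16:45409054-45409303 on the minus strand for Cd200, each written 5′ to 3′ on the strand of its gene. Bases just after the start were found in a transcript of the gene for Pdcd1 and Cd200, but not for Cd274. The strand and start of Cd274 therefore rest on the annotation alone. Capitals mark matches to the motifs that were searched.
Pdcd1: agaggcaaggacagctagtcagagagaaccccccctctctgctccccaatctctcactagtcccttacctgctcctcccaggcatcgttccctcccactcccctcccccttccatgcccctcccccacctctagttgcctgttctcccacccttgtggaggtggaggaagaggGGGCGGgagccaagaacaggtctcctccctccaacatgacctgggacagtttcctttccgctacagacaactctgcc
Cd274: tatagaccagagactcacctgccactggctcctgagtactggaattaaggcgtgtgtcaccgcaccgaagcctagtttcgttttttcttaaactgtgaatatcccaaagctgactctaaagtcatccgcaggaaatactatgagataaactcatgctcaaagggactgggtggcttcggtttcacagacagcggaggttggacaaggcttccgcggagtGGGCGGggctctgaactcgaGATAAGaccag
Cd200: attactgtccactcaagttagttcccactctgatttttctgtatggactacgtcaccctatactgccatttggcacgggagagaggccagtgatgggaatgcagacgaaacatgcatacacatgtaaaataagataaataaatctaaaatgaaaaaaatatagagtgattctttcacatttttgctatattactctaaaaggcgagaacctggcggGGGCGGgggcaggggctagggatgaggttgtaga

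Of the motifs searched on both strands in these 250-base windows, the GC box GGGCGG matched at position -77 of Pdcd1, at -31 of Cd274 and at -34 of Cd200, counted from the annotated start, and is held by 32.7% of 32851 promoters. GATAAG matched only in Cd274, at -11, and is held by 6.55% of promoters. The interferon response element core (GAAA, any 2 bases, GAAA; 2.98% of promoters) and the STAT site core TTCNNNGAA (7.02%) matched in none of the 7 windows, and Pdcd1lg2, Cd80, Ctla4 and Havcr2 held none of the motifs. GGGCGG and GATAAG were added to the search after these promoters had been read, so nothing is read from their matches beside the shares. The windows shown are those that held a match. The matches describe the letters only and say nothing about binding.

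Levels are given in FPKM, fragments mapped to a gene scaled by transcript length and by library size. Differences are PRDM16 minus PRDM16mut on the log2(FPKM + 1) scale, which understates changes of low genes. A gene was tested where it reached 1 FPKM in at least 2 of the 4 libraries of an experiment, with limma, and was called at an adjusted p under 0.05 over all genes tested. The labels do not say whether the 2 libraries of a group came from separate cultures, so a p-value covers the spread between libraries alone, and that spread may be technical. The 3 tables were normalised separately, so levels from different experiments stand side by side and were not tested against each other. The values of a library summed to between 570872 and 683269 FPKM, and the steps of low values put the depth of the second PRDM16 library with MLL-AF9 at 1.63 times that of the first, against ratios from 0.92 to 1.17 in the other 5 groups. Prdm16 itself, whose transcript both forms could add to, had 83.9 and 119 FPKM in the PRDM16 libraries and 29.5 and 30.1 FPKM in the PRDM16mut libraries of the MLL-AF9 cotransduction (log2 difference 1.71, limma adjusted p = 4.18e-04). Its level was 49.2 and 56.5 FPKM with PRDM16 and 56.6 and 43.5 FPKM with PRDM16mut in the E2A-HLF cotransduction (limma adjusted p = 0.622). Stable cells had Prdm16 at 77.9 and 80.0 FPKM with PRDM16 and 89.1 and 94.6 FPKM with PRDM16mut (log2 difference -0.22, limma adjusted p = 0.0414). That call was kept in 5 of 13 alternative settings. It was lost without any 1 of the 4 libraries, and also with the spread shared over all 12 libraries (limma adjusted p = 0.477). The MLL-AF9 cotransduction therefore compared libraries that also differed in the Prdm16 level, and the part of that difference in the values below was not tested.

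Pdcd1, which encodes PD-1, was much higher with PRDM16 than with PRDM16mut in the MLL-AF9 cotransduction, fell with PRDM16 in the E2A-HLF cotransduction and was close to 0 in the stable cells. With MLL-AF9, Pdcd1 stood at 56.4 and 62.5 FPKM with PRDM16 and at 0.736 and 0.825 FPKM with PRDM16mut. The groups were far apart, with a ratio of means of 76.1 and a log2 difference of 5.08, the sixth largest increase among 11071 genes tested. With E2A-HLF, Pdcd1 stood at 1.67 and 1.80 FPKM with PRDM16 and at 6.73 and 6.08 FPKM with PRDM16mut. Here both PRDM16 libraries lay below both PRDM16mut libraries, and Pdcd1 fell by 1.44 on the log2 scale (standard error 0.0704, limma adjusted p = 3.66e-05). The 4 stable values were 0.0381 and 0.0217 FPKM with PRDM16 and 0.0119 and 0.0469 FPKM with PRDM16mut. These groups overlapped and Pdcd1 did not reach the 1 FPKM needed for a test. Ordered by mean, Pdcd1 was highest in the MLL-AF9 cotransduction with PRDM16 (59.4 ± 4.33 FPKM, SD, n = 2), then in E2A-HLF with PRDM16mut (6.41 ± 0.461), E2A-HLF with PRDM16 (1.73 ± 0.0899) and MLL-AF9 with PRDM16mut (0.781 ± 0.0632), and the ranges of these 4 groups did not meet. The 2 stable groups, at the bottom, did not differ beyond their spread.

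**Figure D1:**
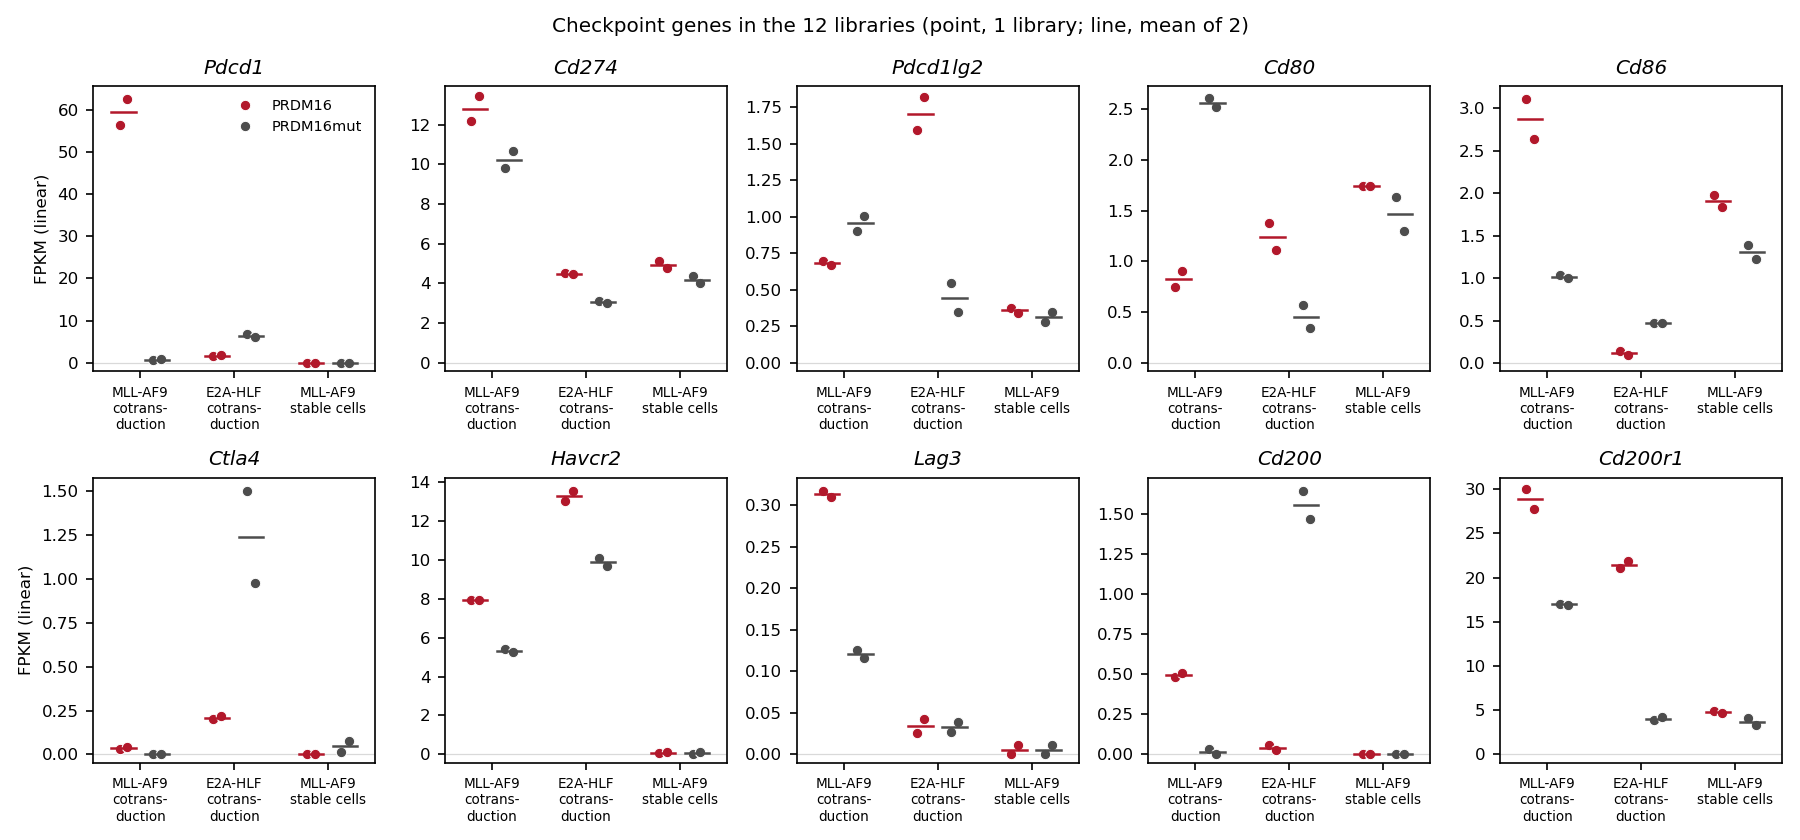
FPKM (linear axis) of the 10 checkpoint genes in the 12 libraries, by experiment, with PRDM16 libraries in red and PRDM16mut libraries in grey; each point is 1 library and each line the mean of 2, and the axis differs between panels. Pdcd1 reaches 56.4 and 62.5 FPKM in the PRDM16 libraries of the MLL-AF9 cotransduction, and Cd200r1 and Cd274 are the 2 genes at 1 FPKM or more in all 12 libraries.

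In the MLL-AF9 cotransduction the genes for the ligands of PD-1 differed by much less than Pdcd1. Cd274, which encodes PD-L1, was at 1 FPKM or more in all 12 libraries. With MLL-AF9 it had 12.2 and 13.4 FPKM with PRDM16 and 9.83 and 10.7 FPKM with PRDM16mut, a log2 difference of 0.30. With E2A-HLF it had 4.54 and 4.46 FPKM with PRDM16 and 3.09 and 3.0 FPKM with PRDM16mut. Cd274 rose there by 0.44 on the log2 scale (standard error 0.0572, limma adjusted p = 0.00171), a ratio of means of 1.48. Among the stable cells, where it had 5.13 and 4.76 FPKM with PRDM16 and 4.36 and 4.03 FPKM with PRDM16mut, the groups did not overlap but the difference of 0.19 was not called (limma adjusted p = 0.102). Cd274 was higher in the PRDM16 libraries of all 3 experiments, without overlap.

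Pdcd1lg2, which encodes PD-L2, stayed near the 1 FPKM limit. It had 0.696 and 0.672 FPKM with PRDM16 and 0.905 and 1.0 FPKM with PRDM16mut in the MLL-AF9 cotransduction, which left it out of the test. With E2A-HLF, Pdcd1lg2 had 1.59 and 1.82 FPKM with PRDM16 and 0.545 and 0.350 FPKM with PRDM16mut. It was higher there with PRDM16 by 0.90 on the log2 scale. It entered the test through its PRDM16 libraries alone, where it was high, so nothing is read from its test. The stable cells had 0.378 and 0.344 FPKM with PRDM16 and 0.278 and 0.351 FPKM with PRDM16mut, with overlapping groups.

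Cd80 and Cd86 encode the ligands shared by CD28 and CTLA-4, and within each cotransduction their values lay on opposite sides. With MLL-AF9, Cd80 had 0.744 and 0.903 FPKM with PRDM16 and 2.61 and 2.52 FPKM with PRDM16mut, a log2 difference of -0.97. Cd86 had 3.11 and 2.64 FPKM with PRDM16 and 1.04 and 0.997 FPKM with PRDM16mut in the same libraries, a log2 difference of 0.94. The Cd80 values were therefore lower, and the Cd86 values higher, in both PRDM16 libraries. With E2A-HLF, Cd80 had 1.38 and 1.11 FPKM with PRDM16 and 0.572 and 0.342 FPKM with PRDM16mut. It was higher with PRDM16 by 0.62 on the log2 scale. It too entered the test only because of its PRDM16 libraries, so nothing is read from its test there. Cd86 stayed under 1 FPKM there, at 0.141 and 0.0881 FPKM with PRDM16 and at 0.470 and 0.469 FPKM with PRDM16mut, and was not tested; both PRDM16 values were the lower ones. Neither gene was called in the stable cells. Cd80 had 1.75 and 1.74 FPKM with PRDM16 and 1.63 and 1.30 FPKM with PRDM16mut (log2 difference 0.16, limma adjusted p = 0.267). For Cd86 the values were 1.98 and 1.83 FPKM with PRDM16 and 1.39 and 1.22 FPKM with PRDM16mut (log2 difference 0.34, limma adjusted p = 0.0530), and this gene was called in 2 of 12 alternative settings, at a limma adjusted p of 0.0471 with the replicate number as a block and of 0.0309 with the spread shared over all libraries.

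Ctla4, the receptor for both ligands, was nearly absent outside 1 group. In the E2A-HLF cotransduction it had 0.201 and 0.219 FPKM with PRDM16 and 1.5 and 0.979 FPKM with PRDM16mut. Only 1 library thus reached 1 FPKM, so Ctla4 was not tested, although both PRDM16 values lay below both PRDM16mut values. In the MLL-AF9 cotransduction it had 0.0321 and 0.0395 FPKM with PRDM16 and was listed at 0 in both PRDM16mut libraries, while stable cells were listed at 0 with PRDM16 in both libraries and had 0.0159 and 0.0786 FPKM with PRDM16mut. Ctla4 was therefore also higher with PRDM16 in the MLL-AF9 cotransduction and lower in the other 2 experiments, at levels under 0.1 FPKM in all but the E2A-HLF libraries.

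Havcr2, which encodes TIM-3, was expressed in both cotransductions and near 0 in the stable cells. It had 13 and 13.6 FPKM with PRDM16 and 10.1 and 9.69 FPKM with PRDM16mut in the E2A-HLF cotransduction, and rose there by 0.39 on the log2 scale (standard error 0.0512, limma adjusted p = 0.00183). In the MLL-AF9 cotransduction its level was 7.95 and 7.92 FPKM with PRDM16 and 5.43 and 5.25 FPKM with PRDM16mut, a log2 difference of 0.50. All 4 stable values were near 0, at 0.0491 and 0.126 FPKM with PRDM16 and 0.0449 and 0.115 FPKM with PRDM16mut. Both cotransductions thus carried the transcript in every library, with the PRDM16 libraries higher, and the stable cells hardly carried it. Lag3, which encodes an inhibitory receptor for MHC class II, stayed under 1 FPKM in all 12 libraries. Its highest values were 0.317 and 0.310 FPKM with PRDM16 in the MLL-AF9 cotransduction, against 0.126 and 0.116 FPKM with PRDM16mut, and elsewhere it did not pass 0.0424 FPKM.

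The CD200 ligand and receptor genes went opposite ways in the E2A-HLF cotransduction. In the E2A-HLF cotransduction the ligand gene Cd200 had 0.0584 and 0.0255 FPKM with PRDM16 and 1.64 and 1.47 FPKM with PRDM16mut. Cd200 was lower with PRDM16 by 1.29 on the log2 scale. It entered the test through its PRDM16mut libraries alone, where it was high, so nothing is read from its test. The receptor gene Cd200r1 had 21.1 and 21.9 FPKM with PRDM16 and 3.85 and 4.19 FPKM with PRDM16mut in the same libraries. It rose by 2.16 (log2, standard error 0.0578, limma adjusted p = 3.99e-06), a ratio of means of 5.34. In the MLL-AF9 cotransduction both genes were higher with PRDM16. Cd200 had 0.483 and 0.506 FPKM with PRDM16 and 0.0333 and 0 FPKM with PRDM16mut there, and Cd200r1 had 30.0 and 27.8 FPKM with PRDM16 and 17.1 and 16.9 FPKM with PRDM16mut (log2 difference 0.73). Cd200 was listed at 0 in all 4 stable libraries, and Cd200r1 had 4.93 and 4.70 FPKM with PRDM16 and 4.07 and 3.28 FPKM with PRDM16mut (log2 difference 0.32, limma adjusted p = 0.0893, or 0.0442 with the replicate number as a block). The receptor was thus higher in the PRDM16 libraries of all 3 experiments without overlap, with log2 differences of 0.73, 2.16 and 0.32.

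**Figure D2:**
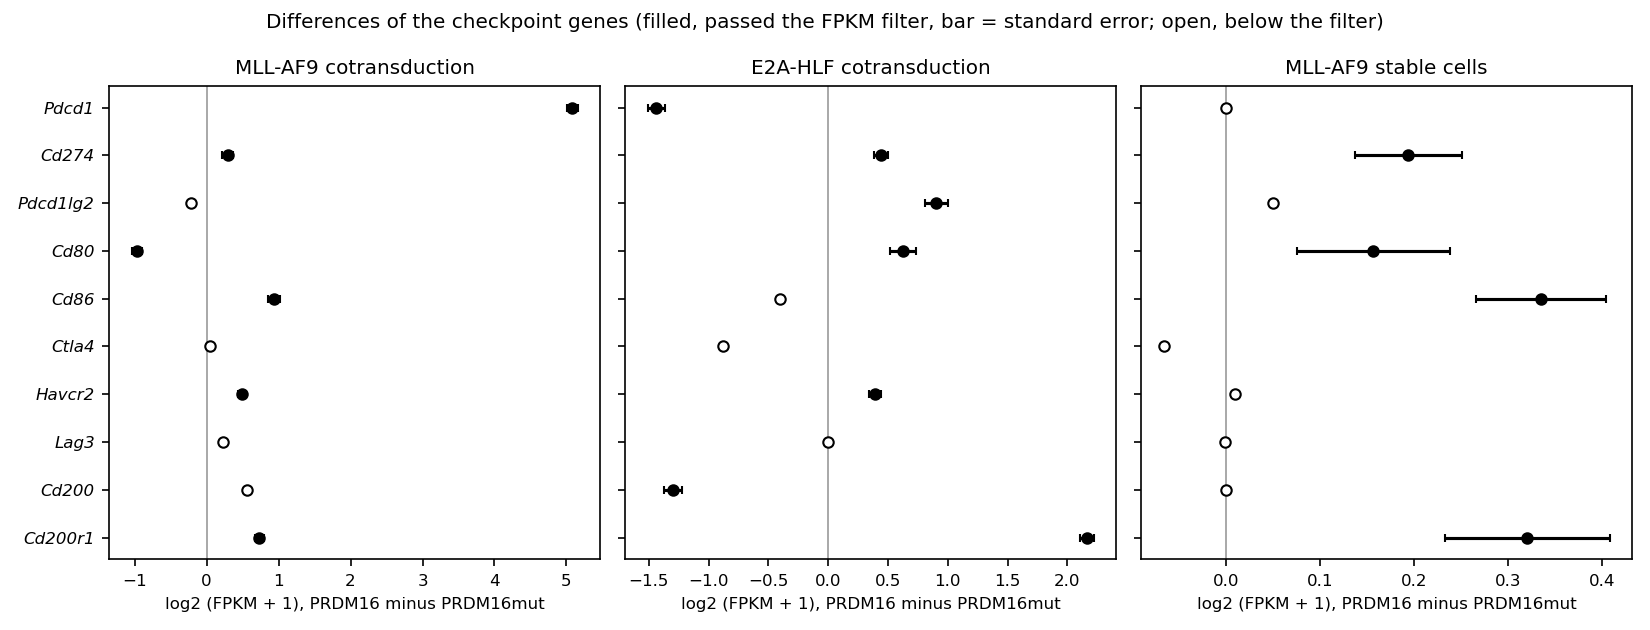
Difference between PRDM16 and PRDM16mut of each checkpoint gene, in log2(FPKM + 1), in the 3 experiments; filled points passed the 1 FPKM filter and carry their standard error as a bar, open points did not pass it, and the axis differs between panels. Pdcd1 lies at 5.08 in the MLL-AF9 cotransduction and at -1.44 in the E2A-HLF cotransduction, and no value in the stable cells passes 0.34.

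Counted over the genes, 7 of the 10 passed the filter in the E2A-HLF cotransduction, and 5 of them rose (Cd274, Pdcd1lg2, Cd80, Havcr2 and Cd200r1) and 2 fell (Pdcd1 and Cd200). The share of all 11010 genes tested that was called there was 43.8%, with 22.7% higher and 21.1% lower. Since 3 of the 7 genes (Pdcd1lg2, Cd80 and Cd200) entered the test through the group where they were high, the count supports nothing about the genes as a set. In the stable cells 4 of the 10 passed the filter (Cd274, Cd80, Cd86 and Cd200r1) and limma called 0 of them, where it called 6.36% of 10580 genes, 4.2% higher and 2.16% lower. Of these 4 genes, 3 had an unadjusted limma p under 0.05 (Cd274, Cd86 and Cd200r1), and with the replicate number as a block limma called 2 (Cd86 and Cd200r1). Of all 673 calls in the stable cells 66% were higher with PRDM16. After quantile normalisation limma called 807 genes there, 50.7% of them higher. Leaving out any 1 library left fewer calls. In the MLL-AF9 cotransduction 6 of the 10 passed the filter, and no count of calls is given for them, since that experiment led to the choice of the genes; of all 11071 genes tested there 69.5% were called, 35.6% higher and 34% lower. By library, 8 of the 10 genes had both PRDM16 values above both PRDM16mut values in the MLL-AF9 cotransduction and 2 had both below (of the genes tested there 43.6% lay above and 42.7% below, so 86.3% did not overlap). In the E2A-HLF cotransduction 5 of the 10 were above, 4 below and 1 overlapped (of the genes tested there 38.4% lay above and 35.3% below, so 73.7% did not overlap), and in the stable cells 4 of the 10 were above, 1 was below and 5 overlapped (of the genes tested there 35.1% lay above and 25.6% below, so 60.6% did not overlap). The 10 genes are counted here whether or not they passed the filter.

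Whether the difference between PRDM16 and PRDM16mut itself differed between the E2A-HLF cotransduction and the MLL-AF9 stable cells was tested as a difference of the 2 log2 differences, in 1 limma fit of all 12 libraries, in which 39.4% of 11449 genes were called, 19.3% with a positive and 20.1% with a negative value. A gene entered this fit by passing the filter in at least 1 experiment. Pdcd1lg2 and Cd200 did so only through the E2A-HLF group where they were high, so their differences, 0.85 and -1.29, are given as a description with no test. Of the others, Cd200r1 differed most upwards, by 1.84 (standard error 0.11, limma adjusted p = 1.70e-06), followed by Cd80 at 0.47 (limma adjusted p = 0.0225) and Havcr2 at 0.38 (limma adjusted p = 0.00393). Pdcd1 differed most downwards, by -1.44 (limma adjusted p = 2.77e-06), then Cd86 by -0.73 (limma adjusted p = 2.45e-04). Cd86 was under 1 FPKM in every E2A-HLF library, so its difference draws on values below the filter of that experiment. For Pdcd1, Cd200 and Havcr2 the stable cells were at or near 0, so these differences are almost wholly those of the E2A-HLF libraries. In the same fit Cd274 differed by 0.25 and was not called (limma adjusted p = 0.0520). With the filter passed in every experiment, Cd274, Cd80 and Cd200r1 were the checkpoint genes tested. Under that filter Cd274 was called, at a limma adjusted p of 0.0496. The Cd80 call was lost without any 1 of 5 libraries, with limma adjusted p from 0.0578 to 0.0802, and the Havcr2 call with a pseudocount of 0.1 (limma adjusted p = 0.359).

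The genes whose pattern was most like that of Pdcd1 were found by Pearson's r over the 12 libraries on log2(FPKM + 1), after the mean of each experiment had been removed, among 10467 genes. They were Ephb2, Pcyt1a, Tspan33, Apobec3 and Large, with r from 0.9988 to 0.9992. Each was higher with PRDM16 in the MLL-AF9 cotransduction and lower with PRDM16 in the E2A-HLF cotransduction. Ephb2, an ephrin receptor tyrosine kinase, averaged 3.51 FPKM with PRDM16 and 0.0307 FPKM with PRDM16mut with MLL-AF9, and 0.707 FPKM with PRDM16 and 1.5 FPKM with PRDM16mut with E2A-HLF. Apobec3, a cytidine deaminase that restricts retroviruses, averaged 76.7 FPKM with PRDM16 and 27.7 FPKM with PRDM16mut with MLL-AF9, and 95.8 FPKM with PRDM16 and 129 FPKM with PRDM16mut with E2A-HLF. Closest to Cd274 were Tlr13 (r = 0.968), an endosomal receptor for bacterial ribosomal RNA, Lilrb3 and Cisd3, and closest to Cd86 were Rragb, Aldoc and Mt2, with r from 0.984 to 0.987. Closest to Cd200r1 were Galnt3 (r = 0.995), Il1rn, the interleukin-1 receptor antagonist, and Cytip. The 12 points of each r form 6 pairs of libraries from the same groups, so a high r reflects 3 differences between pairs of groups and is given as a description.

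Genes of the same pathways were read from 7 lists. Their counts stand against the shares of all tested genes called in each experiment, which were 35.6% higher and 34% lower with MLL-AF9, 22.7% higher and 21.1% lower with E2A-HLF, and 4.2% higher and 2.16% lower in the stable cells. Some listed genes also entered the test only through the group where they were high. Among them were Cd96, Ido1 and Nr4a1 with MLL-AF9, Cd200r3 with E2A-HLF and Cd276 in both cotransductions. The counts include such genes, and nothing is read from their tests. Among other inhibitory receptors of myeloid and lymphoid cells, 8 of 10 genes tested rose and 1 fell with E2A-HLF, where the median log2 difference was 0.70, against 0.01 over all genes tested. With MLL-AF9 3 of 11 rose and 5 fell, and the median was -0.13, against 0.01 over all genes tested. The gene for VISTA, an inhibitory molecule of myeloid cells listed as 4632428N05Rik, fell in the MLL-AF9 cotransduction and rose in the E2A-HLF cotransduction. In the MLL-AF9 cotransduction it had 5.56 and 6.27 FPKM with PRDM16 and 51.2 and 51.6 FPKM with PRDM16mut (log2 difference -2.92, limma adjusted p = 5.16e-06). In the E2A-HLF cotransduction it had 8.13 and 8.71 FPKM with PRDM16 and 1.73 and 1.78 FPKM with PRDM16mut (log2 difference 1.77, limma adjusted p = 9.23e-06). Its direction was thus the reverse of that of Pdcd1 in both cotransductions. Ceacam1, an inhibitory adhesion molecule, and Pilra, an inhibitory receptor of myeloid cells, also fell with MLL-AF9. Ceacam1 had 1.21 and 1.10 FPKM with PRDM16, against 14.4 and 14.7 FPKM with PRDM16mut, and Pilra had 2.19 and 1.72 FPKM with PRDM16, against 13.6 and 15.4 FPKM with PRDM16mut. Cd96, a receptor of T and natural killer cells, stood there at 4.82 and 5.18 FPKM with PRDM16, against 0.880 and 0.832 FPKM with PRDM16mut (log2 difference 1.69). Its values thus lay on the same side as those of Pdcd1. Cd300a, an inhibitory receptor of myeloid and mast cells, rose with E2A-HLF to 37.1 and 36.6 FPKM with PRDM16, against 18.1 and 18.5 FPKM with PRDM16mut. Sirpa, the receptor for the CD47 signal against phagocytosis, went the way of VISTA. It had 55.6 and 58.8 FPKM with PRDM16 and 83.1 and 84.2 FPKM with PRDM16mut in the MLL-AF9 cotransduction, and 16.4 and 16.3 FPKM with PRDM16 and 8.86 and 9.03 FPKM with PRDM16mut in the E2A-HLF cotransduction, and both changes were called. Its ligand gene Cd47 had the same signs, with 113 and 101 FPKM with PRDM16 and 187 and 183 FPKM with PRDM16mut in the MLL-AF9 cotransduction, and 148 and 150 FPKM with PRDM16 and 110 and 116 FPKM with PRDM16mut in the E2A-HLF cotransduction. Cd244, a SLAM family receptor, rose in the E2A-HLF cotransduction to 3.99 and 4.25 FPKM with PRDM16, against 1.16 and 0.940 FPKM with PRDM16mut. Lilrb4 and Gp49a are near-identical copies whose reads cannot be told apart here with certainty, and each counts as 1 of the risers in that list. Of 11 genes tested in the stable cells 2 rose, Cd244 and Lilrb4, and both calls were lost without any 1 of the 4 libraries.

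Among other inhibitory ligands, 5 of 9 rose and 3 fell in the MLL-AF9 cotransduction (median 0.46), 4 of 9 rose and 4 fell in the E2A-HLF cotransduction (median -0.02), and 2 of 8 rose in the stable cells (median 0.09), of which 1 was left without any 1 library. Cd276, which encodes the B7 family member B7-H3, was lower with PRDM16 in both cotransductions. It had 0.184 and 0.151 FPKM with PRDM16 and 7.04 and 6.89 FPKM with PRDM16mut with MLL-AF9 (log2 difference -2.77). With E2A-HLF it had 0.497 and 0.526 FPKM with PRDM16 and 2.63 and 2.79 FPKM with PRDM16mut (log2 difference -1.29). Lgals3, encoding galectin-3, a reported ligand of LAG-3, rose in all 3 experiments, by 1.85 with MLL-AF9, 1.09 with E2A-HLF and 0.46 in the stable cells (limma adjusted p = 0.00296 in the last). Its level in the MLL-AF9 cotransduction was 1263 and 1268 FPKM with PRDM16 and 351 and 347 FPKM with PRDM16mut. Cd24a, encoding a reported ligand of inhibitory Siglec receptors, rose with MLL-AF9 to 498 and 457 FPKM with PRDM16, against 155 and 154 FPKM with PRDM16mut, and fell with E2A-HLF to 139 and 134 FPKM with PRDM16, against 273 and 285 FPKM with PRDM16mut. Those are the directions of Pdcd1. Cd52 rose with E2A-HLF to 178 and 177 FPKM with PRDM16, against 26.9 and 25.6 FPKM with PRDM16mut (log2 difference 2.71, limma adjusted p = 8.53e-07). Ido1, a tryptophan-degrading enzyme that restrains T cells, rose with MLL-AF9 to 1.87 and 1.88 FPKM with PRDM16, against 0.0907 and 0.186 FPKM with PRDM16mut. The 3 remaining genes of the CD200 receptor family rose together in the MLL-AF9 cotransduction (3 of 3, median 0.86), and the 2 that could be tested rose in the E2A-HLF cotransduction (median 2.79). Cd200r4 had 27.8 and 27.8 FPKM with PRDM16 and 2.56 and 2.90 FPKM with PRDM16mut with E2A-HLF, and Cd200r3, whose product is found on mast cells and basophils, had 10.5 and 11.6 FPKM with PRDM16 and 0.969 and 0.917 FPKM with PRDM16mut. Cd200r1 and Cd200r4 are close paralogs, so their values may share reads. None of these 3 genes reached 1 FPKM in the stable cells.

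Among costimulatory receptors and ligands, 2 of 10 rose and 4 fell with E2A-HLF (median 0.01), 4 of 8 rose and 1 fell with MLL-AF9 (median 0.34) and 0 of 7 were called by limma in the stable cells, where 2 had an unadjusted p under 0.05. Cd28, the activating partner of Cd80 and Cd86, fell in the E2A-HLF cotransduction to 3.03 and 2.98 FPKM with PRDM16, against 10.6 and 11.8 FPKM with PRDM16mut (log2 difference -1.61, limma adjusted p = 1.90e-05). Cd27, a costimulatory receptor of the TNF receptor family, fell there too, to 8.83 and 7.92 FPKM with PRDM16, against 49.7 and 48.4 FPKM with PRDM16mut. With MLL-AF9 the TNF family ligand gene Tnfsf14 fell to 2.16 and 2.32 FPKM with PRDM16, against 10.9 and 11.5 FPKM with PRDM16mut, and Tnfsf9, which encodes another TNF family ligand, rose to 3.49 and 3.64 FPKM with PRDM16, against 1.11 and 1.24 FPKM with PRDM16mut. Among signalling proteins downstream of PD-1 and related receptors, 6 of 18 rose and 6 fell with E2A-HLF, 5 of 19 rose and 9 fell with MLL-AF9, and 1 of 19, Inpp5d, fell in the stable cells, a call lost without any 1 of the 4 libraries. The count of risers in this list fell to 2 without the first PRDM16 library and to 3 without the second PRDM16mut library with E2A-HLF, and to 3 without the first PRDM16mut library with MLL-AF9. The costimulatory genes that fell with MLL-AF9 numbered 2 when 1 or the other PRDM16 library was left out. The phosphatase genes Ptpn11 and Ptpn6, whose products SHP-2 and SHP-1 bind the PD-1 tail, were well expressed. Ptpn6 had 201 and 221 FPKM with PRDM16 and 166 and 162 FPKM with PRDM16mut with MLL-AF9, and Ptpn11 had 20.9 and 21.9 FPKM with PRDM16 and 29.5 and 28.6 FPKM with PRDM16mut. The adaptor genes Lat and Lcp2 fell with MLL-AF9 and rose with E2A-HLF. Lat had 3.63 and 4.60 FPKM with PRDM16 and 17.9 and 19.0 FPKM with PRDM16mut with MLL-AF9, and 2.63 and 2.87 FPKM with PRDM16 and 0.928 and 1.18 FPKM with PRDM16mut with E2A-HLF.

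Known transcriptional regulators of Pdcd1 in T cells were called upwards in 7 of 12 genes and downwards in 3 in the MLL-AF9 cotransduction (median 0.24), and upwards in 3 of 12 and downwards in 6 in the E2A-HLF cotransduction (median -0.14). With MLL-AF9, Tox, a regulator of T cell exhaustion, rose to 14.1 and 13.6 FPKM with PRDM16, against 4.87 and 4.40 FPKM with PRDM16mut, Nr4a1 rose to 3.49 and 3.45 FPKM, against 0.514 and 0.438 FPKM, and Foxo1 rose to 5.22 and 4.87 FPKM, against 1.17 and 0.852 FPKM. Notch1 fell there to 3.01 and 3.79 FPKM with PRDM16, against 19.0 and 19.4 FPKM with PRDM16mut. With E2A-HLF, the AP-1 genes Fos and Jun rose, by 2.08 and 1.39 on the log2 scale, and Irf9 and Satb1 fell, by 1.41 and 1.15. Of 10 genes tested in the stable cells 0 were called by limma, and 3 had an unadjusted p under 0.05. With MLL-AF9 the 7 risers were 4 without the second PRDM16mut library. Of the interferon pathway and other regulators of PD-L1, 13 of 22 rose and 4 fell with MLL-AF9 (median 0.36) and 7 of 22 rose and 11 fell with E2A-HLF (median -0.13). Without 1 library, the 4 that fell with MLL-AF9 numbered 7 without the second PRDM16 library and 2 when 1 or the other PRDM16mut library was left out, and the 7 that rose with E2A-HLF numbered 4 without the first PRDM16 library, 3 without the second and 4 without the first PRDM16mut library. Irf1, the main interferon-induced activator of Cd274, rose with MLL-AF9 to 31.7 and 34.0 FPKM with PRDM16, against 16.0 and 16.2 FPKM with PRDM16mut, and fell with E2A-HLF to 13.9 and 13.5 FPKM with PRDM16, against 32.5 and 31.7 FPKM with PRDM16mut. Ifngr1, a chain of the interferon gamma receptor, fell with MLL-AF9 to 26.2 and 25.8 FPKM with PRDM16, against 69.4 and 69.8 FPKM with PRDM16mut. Irf7 fell with E2A-HLF to 2.09 and 2.45 FPKM with PRDM16, against 20.9 and 20.2 FPKM with PRDM16mut. Cd274 was higher with PRDM16 in both of these experiments, so it had the direction of Irf1 in the first and not in the second. Of 22 genes tested in the stable cells 1 was called, Hif1a, and 12 of 13 alternative settings lost the call; it was kept with a filter at 5 FPKM.

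**Figure D3:**
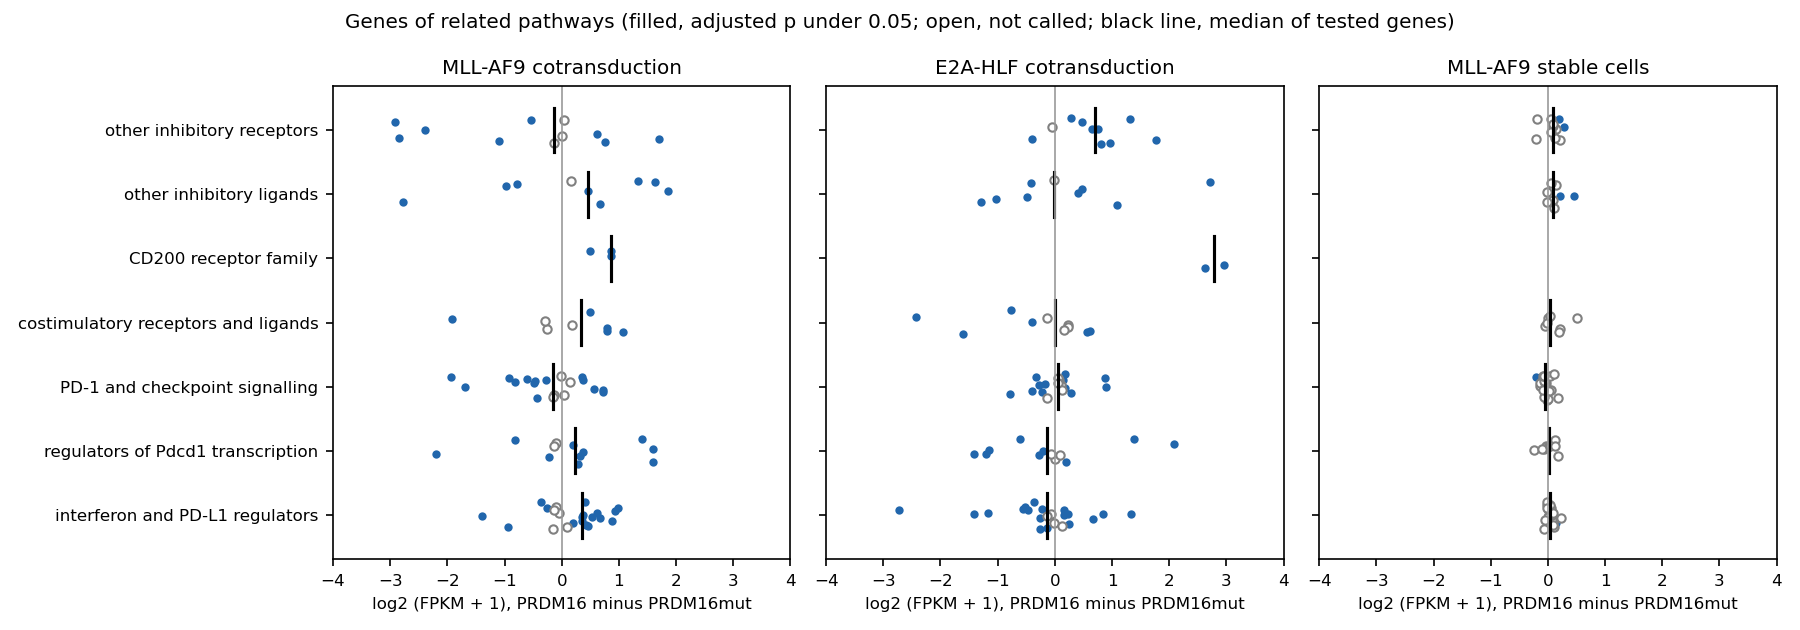
Difference between PRDM16 and PRDM16mut of the tested genes of 7 related lists, in log2(FPKM + 1) on a linear axis, in the 3 experiments; each point is a gene, filled where the limma adjusted p was under 0.05, and black lines are list medians. Other inhibitory receptors have a median of 0.70 in the E2A-HLF cotransduction and -0.13 in the MLL-AF9 cotransduction, and the points in the stable cells reach 0.50 (Tnfrsf9, not called) and 0.46 (Lgals3).

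Markers of the cell types that commonly carry these genes were summed in each library. In bulk RNA, fewer cells of a type and less RNA per cell cannot be told apart. T cell markers were low throughout: their sums lay between 15.3 and 16.3 FPKM with PRDM16 and between 17.7 and 18.3 FPKM with PRDM16mut in the MLL-AF9 cotransduction, from 8.23 to 9.18 FPKM with PRDM16 and from 8.93 to 9.02 FPKM with PRDM16mut in the E2A-HLF cotransduction, and from 6.31 to 6.57 FPKM with PRDM16 and from 6.30 to 6.44 FPKM with PRDM16mut in the stable cells. Of the 13 genes of this list, 4 reached the filter in each cotransduction. With MLL-AF9 these were Thy1, at 9.94 and 10.4 FPKM with PRDM16 and 12.7 and 13.5 FPKM with PRDM16mut, Foxp3, at 1.65 and 1.81 FPKM with PRDM16 and 1.73 and 1.74 FPKM with PRDM16mut, Cd247 and Lck. With MLL-AF9 1 fell (Thy1, a call lost without the second PRDM16mut library) and 0 rose (1 rose without the first PRDM16 library), and with E2A-HLF 1 rose (Thy1) and 1 fell. Cd3e, a defining T cell gene, was at 0.0208 FPKM or less in all 12 libraries. Cd3g stood at 0.159 and 0.215 FPKM with PRDM16 and 0.0249 and 0.0255 FPKM with PRDM16mut in the MLL-AF9 cotransduction and was listed at 0 in the other 8 libraries. Cd5 stood at 0.773 and 0.438 FPKM with PRDM16 and 0.0521 and 0.0107 FPKM with PRDM16mut in the MLL-AF9 cotransduction, so both Cd3g and Cd5 were higher there with PRDM16, at levels under 1 FPKM. Cd8b1 and Cd2 were listed at 0 in all 4 libraries of that experiment. The part of T cell transcripts in the Pdcd1 level was not tested. The B cell genes Ms4a1 and Pax5 were listed at 0 in all 12 libraries, and the B cell sum lay between 3.76 and 4.11 FPKM with PRDM16 and between 3.69 and 4.04 FPKM with PRDM16mut with MLL-AF9, between 4.39 and 4.89 FPKM with PRDM16 and between 10.1 and 10.5 FPKM with PRDM16mut with E2A-HLF, and between 5.99 and 6.29 FPKM with PRDM16 and between 5.22 and 5.61 FPKM with PRDM16mut in the stable cells. Of the 9 B cell genes, Cd79b alone was tested in each experiment. With E2A-HLF, Cd79b had 4.55 and 4.18 FPKM with PRDM16 and 10.2 and 9.88 FPKM with PRDM16mut. The difference of the B cell sum there is thus that of 1 gene. Natural killer cell markers summed to between 7.40 and 7.87 FPKM with PRDM16 and between 4.70 and 5.21 FPKM with PRDM16mut with MLL-AF9, and to between 22.2 and 23.7 FPKM with PRDM16 and between 18.5 and 21.9 FPKM with PRDM16mut with E2A-HLF, led by Nkg7. In the stable cells no natural killer sum passed 2.44 FPKM. Of the 8 genes of that list 1 was tested in each experiment and was called upwards with MLL-AF9; with E2A-HLF 0 were called by limma, with 0 at an unadjusted p under 0.05, but 1 rose without the second PRDM16mut library.

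The shares of all genes called, given above for the pathway lists, hold for the marker counts too. Most dendritic cell markers tested went the same way as Pdcd1 in the cotransductions. Their sum lay between 1121 and 1222 FPKM with PRDM16 and between 42.8 and 45.0 FPKM with PRDM16mut in the MLL-AF9 cotransduction, where 6 of the 6 genes tested rose. In the E2A-HLF cotransduction it lay between 12.9 and 13.3 FPKM with PRDM16 and between 63.2 and 67.2 FPKM with PRDM16mut, where 1 of 6 rose, a call lost without any 1 library, and 5 fell. In the stable cells it lay between 7.98 and 8.34 FPKM with PRDM16 and between 7.13 and 7.64 FPKM with PRDM16mut, and 0 of 2 were called by limma, where 1 had an unadjusted p under 0.05. The invariant chain gene Cd74 led this sum with 897 and 977 FPKM with PRDM16 and 28.9 and 30.1 FPKM with PRDM16mut in the MLL-AF9 cotransduction, and in the same libraries Ccr7 stood at 7.08 and 7.43 FPKM with PRDM16 and 0.105 and 0.175 FPKM with PRDM16mut. The class II gene H2-Aa stood at 199 and 217 FPKM with PRDM16 and 8.35 and 8.63 FPKM with PRDM16mut. Siglech and Cd209a were listed at 0 there. Of the 14 dendritic cell genes, 8 were under 1 FPKM in all 4 libraries of each cotransduction. Some of those tested entered the test only through the group where they were high. Among them were Ccr7 and Itgax with MLL-AF9, and H2-Aa and Clec9a with E2A-HLF. The counts include such genes, and nothing is read from their tests, here or in the other marker lists. Monocyte and macrophage markers summed to between 476 and 518 FPKM with PRDM16 and between 1372 and 1404 FPKM with PRDM16mut with MLL-AF9, although 8 of 12 genes tested rose there and 3 fell, and to between 3130 and 3323 FPKM with PRDM16 and between 1695 and 1828 FPKM with PRDM16mut with E2A-HLF, where 6 of 7 rose and 1 fell. Both sums were led by 1 gene, Ly6c2, and do not stand for the whole list. With MLL-AF9, Ly6c2 had 8.39 and 7.35 FPKM with PRDM16 and 1195 and 1164 FPKM with PRDM16mut. In the E2A-HLF libraries it reached 3155 FPKM. Mast cell and basophil markers, among them Cd200r3, summed to between 256 and 258 FPKM with PRDM16 and between 2218 and 2236 FPKM with PRDM16mut with MLL-AF9 (2 of 11 rose and 9 fell), and to between 206 and 210 FPKM with PRDM16 and between 153 and 159 FPKM with PRDM16mut with E2A-HLF (6 of 8 rose and 1 fell, or 2 without the first PRDM16mut library). Neutrophil markers, among them Elane and S100a9, summed to between 1121 and 1181 FPKM with PRDM16 and between 52596 and 53661 FPKM with PRDM16mut with MLL-AF9, where 11 of 12 fell and 1 rose (0 when 1 or the other PRDM16mut library was left out), and to between 1849 and 1934 FPKM with PRDM16 and between 675 and 689 FPKM with PRDM16mut with E2A-HLF, where 8 of 9 rose and 0 fell. In the stable cells the neutrophil sums were close, between 15375 and 15506 FPKM with PRDM16 and between 14667 and 15260 FPKM with PRDM16mut, and 2 of 12 fell, or 0 when 1 or the other PRDM16 library was left out. The part of these marker changes in the differences of the checkpoint genes was not tested. Of markers of the labelled starting cells, Kit, Ly6a and Cd34 were above 1 FPKM in all 12 libraries. The stem and progenitor list, led by Ly6a in the cotransductions, summed to between 536 and 545 FPKM with PRDM16 and 304 FPKM in both PRDM16mut libraries with MLL-AF9. With E2A-HLF it summed to between 1439 and 1518 FPKM with PRDM16 and between 2708 and 2888 FPKM with PRDM16mut. In the stable cells it summed to between 161 and 162 FPKM with PRDM16 and between 157 and 159 FPKM with PRDM16mut. With MLL-AF9 4 of 7 genes tested rose and 3 fell, with E2A-HLF 1 of 9 rose and 7 fell, and in the stable cells 1 of 6 rose. Ly6a had 493 and 484 FPKM with PRDM16 in the MLL-AF9 cotransduction, against 182 and 183 FPKM with PRDM16mut. Kit fell there to 5.29 and 6.07 FPKM with PRDM16, against 46.8 and 47.5 FPKM with PRDM16mut. Within this list Hoxa9, a known target of MLL fusions, had 0.104 and 0.0957 FPKM with PRDM16 and 30.4 and 30.0 FPKM with PRDM16mut in the MLL-AF9 cotransduction, the libraries where Pdcd1 stood highest and lowest among the cotransductions.

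**Figure D4:**
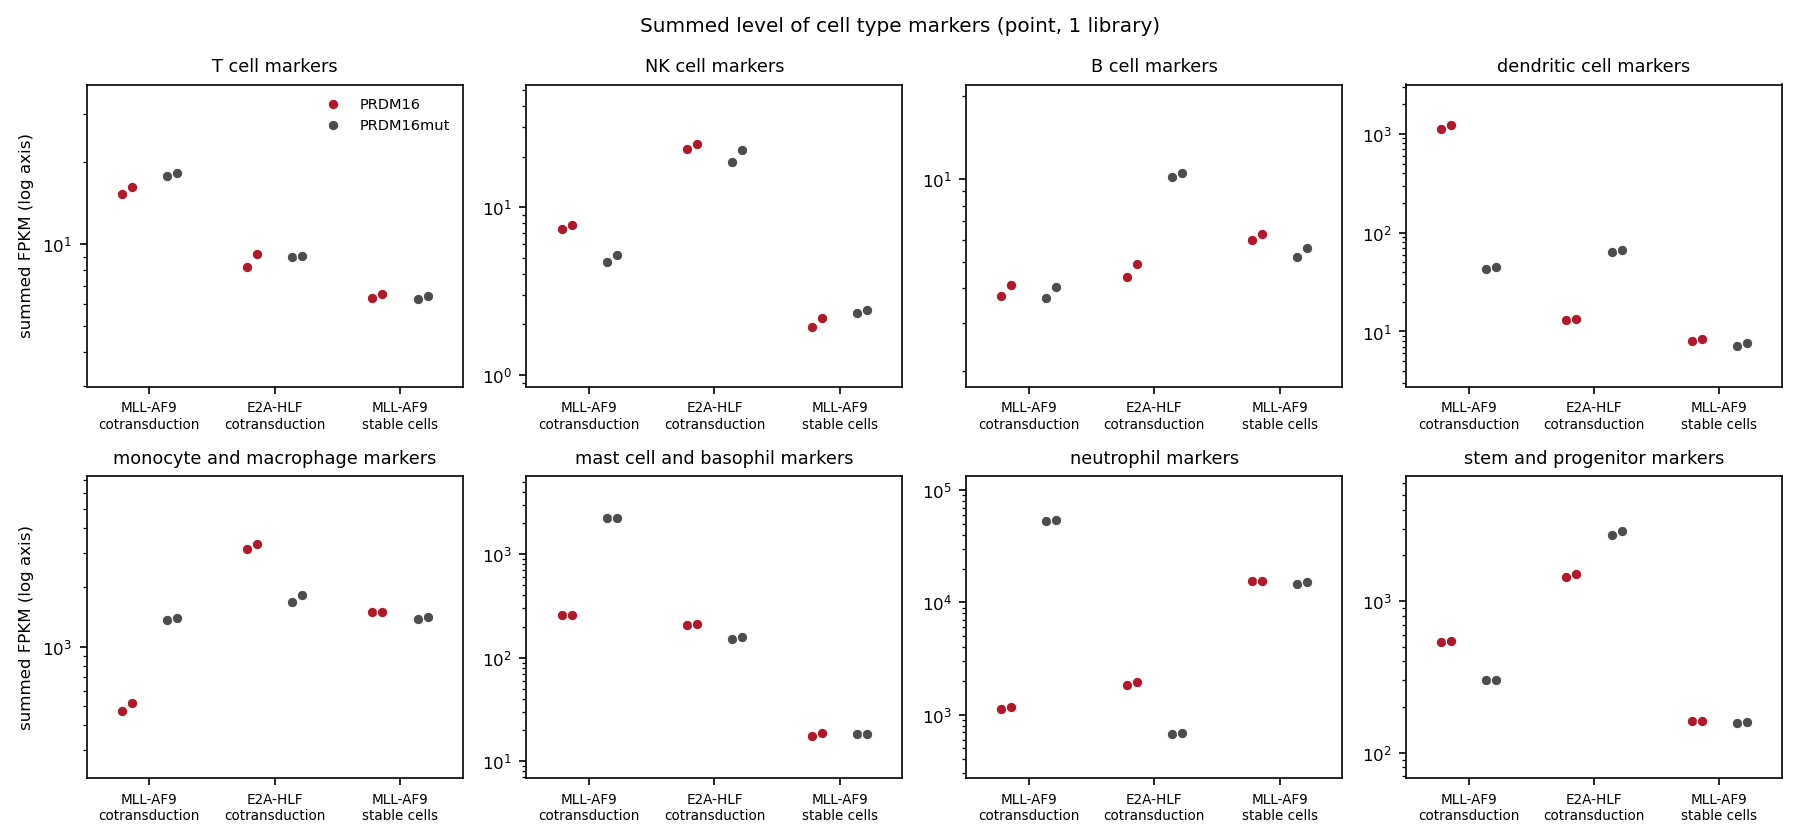
Summed FPKM (log axis, whose range differs between panels) of 8 cell type marker lists in the 12 libraries, by experiment, with PRDM16 in red and PRDM16mut in grey; each point is 1 library, and the lower of 2 is drawn on the left. Dendritic cell markers sum to 1121 and 1222 FPKM with PRDM16 and to 42.8 and 45.0 FPKM with PRDM16mut in the MLL-AF9 cotransduction, and no T cell sum passes 18.3 FPKM. The monocyte and macrophage sums are led by Ly6c2 in each experiment.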

How the data were processed

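The authors deposited FPKM values per gene in 3 tables, 1 for each experiment, with 4 libraries each. Per the labels' protocols, RNA was taken with Trizol and a Qiagen column and poly(A) libraries were made with TruSeq v2. Per the submitters' processing notes, the tools were Bowtie2 2.0.0.7, TopHat2 2.0.3 and Cuffdiff (no version given in the sources used here), with the mm9 build. Read counts were not used here, so the depth of a library is unknown; between 80% and 84.7% of the ratios of low values within a group were ratios of whole numbers up to 6 (tolerance 0.5%), which gave the relative depth of replicates.

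Groups came from the sample titles. In R 4.3.3, each table was fitted on its own with limma 3.58.1 (trend on mean level, two-sided, no covariates) on log2(FPKM + 1), for genes at 1 FPKM or more in at least 2 of the 4 libraries, with Benjamini-Hochberg adjustment over all of them. An exact permutation test of 2 against 2 libraries cannot give a p under 0.333, so none was run. Differences between experiments came from 1 fit of 12 libraries with 6 group means, over genes passing the filter in at least 1 table. The fits were checked on simulated data.

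The 10 genes, the 7 lists of related genes and the 8 marker lists were chosen with earlier results of these data known. From each list, the tested genes with the smallest p (at most 4 a list and experiment) could be named; Gp49a, Ptpn11, Ms4a1, Pax5, Siglech, Cd209a and some T cell markers were named for their role after their values were seen. The motifs GATAAG and GGGCGG were added after the promoters had been read. Alternatives covered the pseudocount, the filter, quantile normalisation, the trend, the shared spread, the replicate block and each library left out.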

Additional observations from a re-analysis of the deposited data

Results flagged for a closer look

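These results were singled out because the difference between PRDM16 and PRDM16mut was not the same in 2 experiments; values are on the log2(FPKM + 1) scale. Between the E2A-HLF cotransduction and MLL-AF9 stable cells the difference itself was tested, in 1 limma fit over all genes, and was called for Pdcd1 (-1.44), Cd86 (-0.73), Havcr2 (0.38), Cd80 (0.47) and Cd200r1 (1.84). Cd200 (-1.29) and Pdcd1lg2 (0.85) were past the threshold too, but had entered the fit only through the E2A-HLF group where they were high, so that nothing is read from their test. A positive value means that the E2A-HLF cotransduction had the more positive difference. Pdcd1, Cd200 and Havcr2 were at or near 0 in the stable cells, and Cd86 was under 1 FPKM in every E2A-HLF library.

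Between the MLL-AF9 and the E2A-HLF cotransduction, 6 genes had both PRDM16 libraries above both PRDM16mut libraries in one and below in the other. The log2 difference with MLL-AF9 minus that with E2A-HLF was 6.52 for Pdcd1, 1.85 for Cd200, 1.34 for Cd86, 0.93 for Ctla4, -1.12 for Pdcd1lg2 and -1.59 for Cd80. No test is given for these differences, since the MLL-AF9 cotransduction had led to the choice of the genes. Ctla4 did not pass the filter in either experiment, Cd200 and Pdcd1lg2 did not with MLL-AF9, and Cd86 did not with E2A-HLF. Of all genes tested, 86.3% did not overlap with MLL-AF9 and 73.7% did not with E2A-HLF. The share of all genes in opposite directions was not counted, so nothing is read from the count of 6.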

How the results depend on the processing

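In the stable cells limma called 673 genes, but 41 with no filter on low values, 278 without a trend, 395 with the spread shared over all 12 libraries and from 65 to 139 without 1 library. Without 1 library the MLL-AF9 cotransduction had from 5259 to 8689 calls (7698 with all), the E2A-HLF cotransduction from 3753 to 4020 (4822 with all) and the E2A-HLF minus stable difference from 3559 to 5297 (4516 with all). All 7 checkpoint genes called in the E2A-HLF cotransduction kept direction and call in each alternative that tested them. Nothing is read from this for Pdcd1lg2, Cd80 and Cd200, which entered the test only through the group where they were high. A filter at a mean of 1 FPKM left 5 of the 7 genes. A filter at 5 FPKM left 3 of them, and none of the 10 genes in the stable cells. In the E2A-HLF minus stable difference Cd274 was called with a pseudocount of 0.1 (limma adjusted p = 0.0377), with the filter passed in every table (0.0496), after quantile normalisation (0.0193), with the block (0.0379) and when 1 or the other MLL-AF9 cotransduction PRDM16 library was left out (0.0310 and 0.0311); the cause was not tested. No called value changed sign.

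Same-numbered libraries shared a number in the sample titles, and what else they shared is not known. Their deviations correlated at 0.067 (MLL-AF9 cotransduction), 0.289 (E2A-HLF) and 0.319 (stable), from 2 pairs each. With the replicate number as a block limma called 7812, 4354 and 664 genes in these experiments and 3815 in the E2A-HLF minus stable difference. It added Cd86 and Cd200r1 in the stable cells and changed no other call of a checkpoint gene within an experiment.

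Alternatives for the related genes and lists were chosen after seeing the data: for the called genes among those the naming rule took and Prdm16, 1292 values kept the call and 52 lost it, all but 1 (Thy1) in the stable cells. Nothing is read from this for related genes that entered the test only through the group where they were high. Of the counts over whole lists, which include other genes, 1069 stayed within 1.5 times and 101 moved.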
